A study of Mus musculus with 6 samples.

Results

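The p53 target genes described here are 36 of the 22600 genes in the count table, taken from a list of symbols of known transcriptional targets of p53. Each symbol matched 1 gene, and all 36 passed the filter on low counts that left 15535 genes for testing. RNA-seq counts came from mouse embryonic stem (ES) cells and from FLICs, a name the labels give without explanation to cells differentiated from ES cells. All cells were on a C57BL/6 background and were kept in culture for 96 h. The groups were ES cells given OHT for 3 days and labelled TRF2-/- (n = 2), untreated ES cells labelled wild-type (n = 2), FLICs given OHT for 3 days and labelled TRF2-/- (n = 1), and untreated FLICs labelled wild-type (n = 1). OHT is hydroxytamoxifen, an active tamoxifen metabolite. TRF2, the product of Terf2, protects chromosome ends. As every OHT-treated group was also labelled TRF2-/-, an effect of OHT and one of TRF2 loss cannot be told apart. Libraries whose titles carry no number are called replicate 1 here, and those with the number 2 are called replicate 2. Nothing in the labels says that the libraries of a group were separate cultures, and the p-values below cover only the spread between libraries, which may be technical.

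p53, encoded by Trp53 in the mouse, is a transcription factor that is stabilised after DNA damage and at unprotected telomeres. It binds paired decamers in its target genes and raises the transcription of genes that halt the cell cycle, promote apoptosis, repair DNA and adjust metabolism. Mdm2, itself a target, encodes the ubiquitin ligase that keeps p53 low. Mouse ES cells are known to hold much p53 and to rely little on its G1 arrest.

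RefSeq promoter windows on GRCm38.p6, from 250 bases before to 50 after an annotated start, were found for 28 of the 36 genes. They were searched for a p53 site, taken as 2 decamers at most 13 bases apart with at most 2 mismatches to the p53 consensus in all and with the CNNG core of each decamer kept. The consensus decamer is its own reverse complement, so a search of 1 strand covers both. Such a site was found for 8 of the 28 genes (28.6%), and for 1272 of 27025 genes with a window (4.71%). The genes had been listed because they are known p53 targets, so this share is a description. The sites are shown so that the element found in each gene can be read beside its transcript values. Capitals mark the decamers, each sequence runs 5′ to 3′ on the strand of its gene, and lower case marks the bases between decamers.

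Cdkn1a (chr17:29090906-29090937, plus strand): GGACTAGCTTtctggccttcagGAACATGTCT
Ccng1 (chr11:40755462-40755481, minus strand): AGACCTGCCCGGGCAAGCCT
Gtse1 (chr15:85859945-85859964, plus strand): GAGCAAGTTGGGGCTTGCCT
Ckap2 (chr8:22186003-22186022, minus strand): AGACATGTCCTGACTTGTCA
Bax (chr7:45467090-45467114, minus strand): TGACAAGCATatcccAGGCAAGCTT
Sesn1 (chr10:41887253-41887275, plus strand): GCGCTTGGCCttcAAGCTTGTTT
Rps27l (chr9:66946296-66946315, plus strand): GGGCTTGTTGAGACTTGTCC
Cd80 (chr16:38458822-38458841, plus strand): GAACAGGCCTGGACAAGTCA

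Only the Cdkn1a site matched the consensus without a mismatch. Its decamers lie 12 bases apart. Where several pairings met the rule, only the 1 with the fewest mismatches was marked. In Cdkn1a the bases directly after the second marked decamer, in lower case below, form a further decamer with 1 mismatch. It makes an adjacent pair with the marked decamer that also meets the rule. The sites of Ccng1, Gtse1 and Rps27l carried 1 mismatch each, and those of Bax, Sesn1, Ckap2 and Cd80 carried 2. Cdkn1a, Gtse1, Sesn1 and Rps27l each had 2 windows, and the site lay in only 1 of them. For Cdkn1a and Ccng1 the 250 bases upstream of the annotated start whose window held the site are given as context. These genes encode the cell cycle inhibitor p21 and cyclin G1, and Ccng1 had the largest difference in CPM between the OHT-treated ES cell libraries. Capitals again mark the decamers.

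Cdkn1a upstream region (chr17:29090729-29090978, plus strand): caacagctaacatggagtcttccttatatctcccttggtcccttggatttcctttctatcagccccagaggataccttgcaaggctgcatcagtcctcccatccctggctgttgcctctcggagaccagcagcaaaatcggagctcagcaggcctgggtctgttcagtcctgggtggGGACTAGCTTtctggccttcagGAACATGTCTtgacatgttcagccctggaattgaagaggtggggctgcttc
Ccng1 upstream region (chr11:40755287-40755536, minus strand): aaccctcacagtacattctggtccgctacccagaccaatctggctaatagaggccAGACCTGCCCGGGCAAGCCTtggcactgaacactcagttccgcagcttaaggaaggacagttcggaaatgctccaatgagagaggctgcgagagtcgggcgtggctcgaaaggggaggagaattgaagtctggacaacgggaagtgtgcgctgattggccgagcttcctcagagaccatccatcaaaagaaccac

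Total counts ran from 23534551 to 43965309 per library. The count of Terf2 followed the labels: it stood at 0.281 and 0.392 CPM in OHT-treated ES cells, against 18.3 and 19.5 CPM in untreated ES cells, and at 0.114 CPM in FLICs with OHT, against 8.27 CPM in untreated FLICs. CPM is the usual scaling of counts to library size, here with library sizes adjusted by TMM. ES cell markers summed to 3829 and 4077 CPM in OHT-treated ES cells, 4293 and 4389 CPM in untreated ES cells, 82.6 CPM in FLICs with OHT and 140.2 CPM in untreated FLICs, and Zfp42 had no count in either FLICs library. Fibroblast markers summed to 2084 and 1386 CPM in OHT-treated ES cells, 2289 and 2262 CPM in untreated ES cells, 23370 CPM in FLICs with OHT and 18180 CPM in untreated FLICs. Vcam1, a marker of that list, had no count in any ES cell library. Markers of 2-cell-like cells summed to 133 and 101 CPM in OHT-treated ES cells, against 6.06 and 5.80 CPM in untreated ES cells, and trophoblast markers to 109.7 and 106 CPM, against 61.2 and 63.5 CPM. Endoderm markers summed to 4.74 and 3.69 CPM in OHT-treated ES cells, against 2.48 and 2.37 CPM in untreated ES cells. Endoderm genes were all low in ES cells, with a highest value of 1.65 CPM, for Sox7 in replicate 1 with OHT. Gata4 stood at 1.44 and 0.706 CPM in OHT-treated ES cells, against 1.29 and 1.17 CPM in untreated ES cells. Sox17 stood at 0.343 and 0.745 CPM, against 0.298 and 0.346 CPM, so for both genes the groups overlapped. The sums of these 3 lists were higher with OHT in ES cells, and their part in the results below was not tested. The OHT-treated ES cell libraries stood apart from each other. Between them 421 of 12698 genes were at least 2-fold higher in replicate 2 and 49 were at least 2-fold lower, while 0 of 12149 genes differed by that much between the untreated ES cell libraries.

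Trp53 itself split the OHT-treated ES cell libraries. It stood at 8.39 and 83.1 CPM in OHT-treated ES cells, against 299 and 345 CPM in untreated ES cells. Replicate 1 with OHT thus held 2.61% and replicate 2 with OHT 25.8% of the untreated mean. Both OHT-treated libraries lay below both untreated ones, but edgeR did not call a change (-2.82 on the log2 scale, SE 0.94, adjusted p = 0.214). In FLICs it stood at 7.82 CPM with OHT and 8.98 CPM without, so both FLICs libraries were at the level of replicate 1 of the OHT-treated ES cells. Because of this split, the targets were read library by library.

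The 36 p53 targets together gave 1239 and 2280 CPM in OHT-treated ES cells, against 2514 and 2495 CPM in untreated ES cells. Replicate 1 with OHT therefore held about as much target transcript as the FLICs libraries, with 1343 CPM with OHT and 1280 CPM without. In bulk libraries fewer cells of a type and less RNA per cell cannot be told apart. Fas averaged under 1 CPM over the ES cell libraries. Of the other 35 targets, 32 were lowest in replicate 1 with OHT (91.4%), against 31.7% of all genes. Replicate 1 lay below the untreated mean by at least 2-fold on the scale log2(CPM + 1) for 15 of 35 targets (42.9%), against 1.34% of all genes, and above it by that much for 0 targets, against 1.97%. Its difference from the untreated mean was above 0 for 1 of 35 targets (2.86%), against 40.6% of all genes. Replicate 2 lay at least 2-fold above the untreated mean for 4 of 35 targets (11.4%), against 2.8% of all genes, and at least 2-fold below for 1 target, Sulf2, against 0.887%. Its difference was above 0 for 18 of 35 targets (51.4%), against 45.3% of all genes. These counts rest on 1 library each and carry no test.

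Set against each other, the OHT-treated ES cell libraries differed by a median of 0.92 in log2(CPM + 1) over 35 targets, higher in replicate 2, where the median of all genes was -0.0029. A difference above 0 was found in 33 of 35 targets (94.3%), against 49.7% of all genes. Of these targets 16 (45.7%) were at least 2-fold higher in replicate 2, against 3.32% of all genes. At least 2-fold lower there were 0 targets, against 0.386% of all genes. Between the untreated ES cell libraries the median over the same number of targets was 0.0492, with 19 of 35 above 0 (54.3%), against 48.4% of all genes, and 0 of 35 targets differed by 2-fold. Depth, at 31518151 and 23534551 counts in the OHT-treated libraries, and the fibroblast marker sums given above also differed between them, and their part in the result was not tested.

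**Figure D1:**
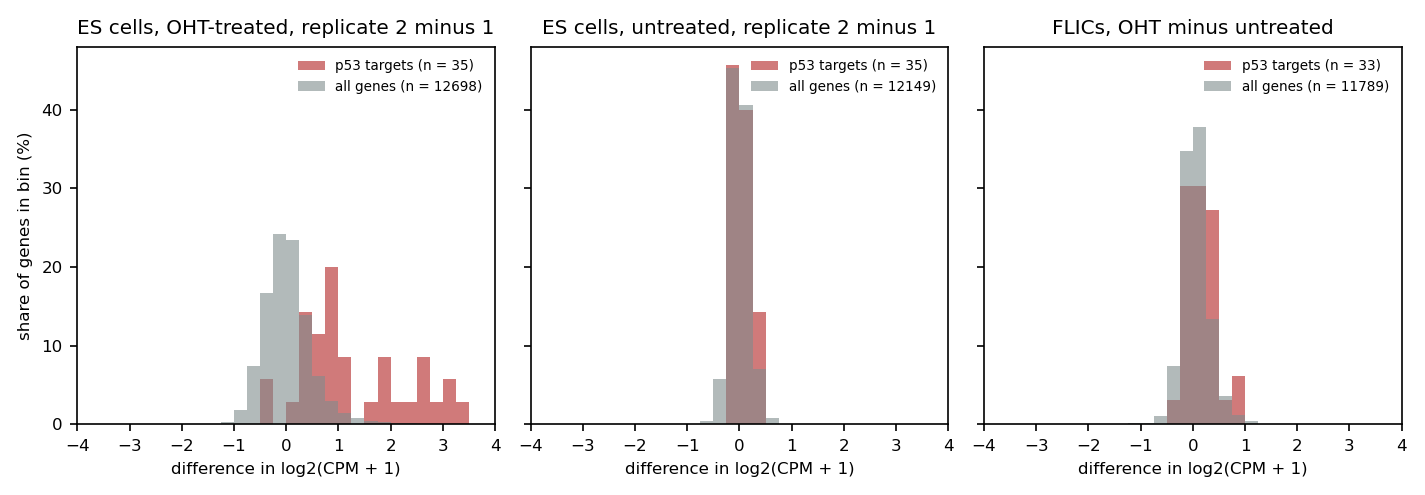
Histograms of the difference in log2(CPM + 1) between pairs of libraries, in bins of 0.25, as the share of genes per bin; red bars are p53 targets, grey bars all genes, each averaging at least 1 CPM over the pair. Targets spread up to 3.44 between the OHT-treated ES cell libraries and lie over the centre of all genes between the untreated ES cell libraries and in FLICs.

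Among the cell cycle genes, Ccng1, which encodes cyclin G1, had the largest difference between the OHT-treated libraries in CPM, and Plk2 the largest in log2(CPM + 1). Ccng1 stood at 45.2 and 295 CPM in OHT-treated ES cells, against 276 and 302 CPM in untreated ES cells. Replicate 2 with OHT lay between the untreated libraries and replicate 1 held 15.6% of their mean. Plk2, a polo-like kinase, stood at 11.2 and 84.0 CPM in OHT-treated ES cells, against 33.5 and 41.1 CPM in untreated ES cells. Btg2, an antiproliferative regulator, stood at 5.93 and 33.1 CPM in OHT-treated ES cells, against 20.7 and 20.2 CPM in untreated ES cells. For both genes the OHT-treated libraries lay on either side of the untreated ones.

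Cdkn1a, which encodes the cyclin-dependent kinase inhibitor p21, had a smaller spread between the OHT-treated libraries. Its values were 19.1 and 32.9 CPM in OHT-treated ES cells, against 37.4 and 37.3 CPM in untreated ES cells. Both OHT-treated libraries lay below both untreated ones, a pattern found in 32.7% of all genes, and replicate 2 held 88.2% of the untreated mean. The edgeR test did not call Cdkn1a (-0.52 on the log2 scale, SE 0.27, adjusted p = 0.352). Psrc1, a spindle-associated protein, stood at 22.8 and 111 CPM in OHT-treated ES cells, against 119 and 124 CPM in untreated ES cells. Gtse1 and Ckap2 encode microtubule-binding proteins of dividing cells, and both were lower in each OHT-treated library than in either untreated one. Gtse1 stood at 197 and 257 CPM in OHT-treated ES cells, against 359 and 352 CPM in untreated ES cells. Ckap2 stood at 145 and 182 CPM in OHT-treated ES cells, against 243 and 221 CPM in untreated ES cells. The ubiquitin ligase subunit Fbxw7 had the smallest difference between the OHT-treated libraries in the cell cycle group, at 0.29 in log2(CPM + 1).

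**Figure D2:**
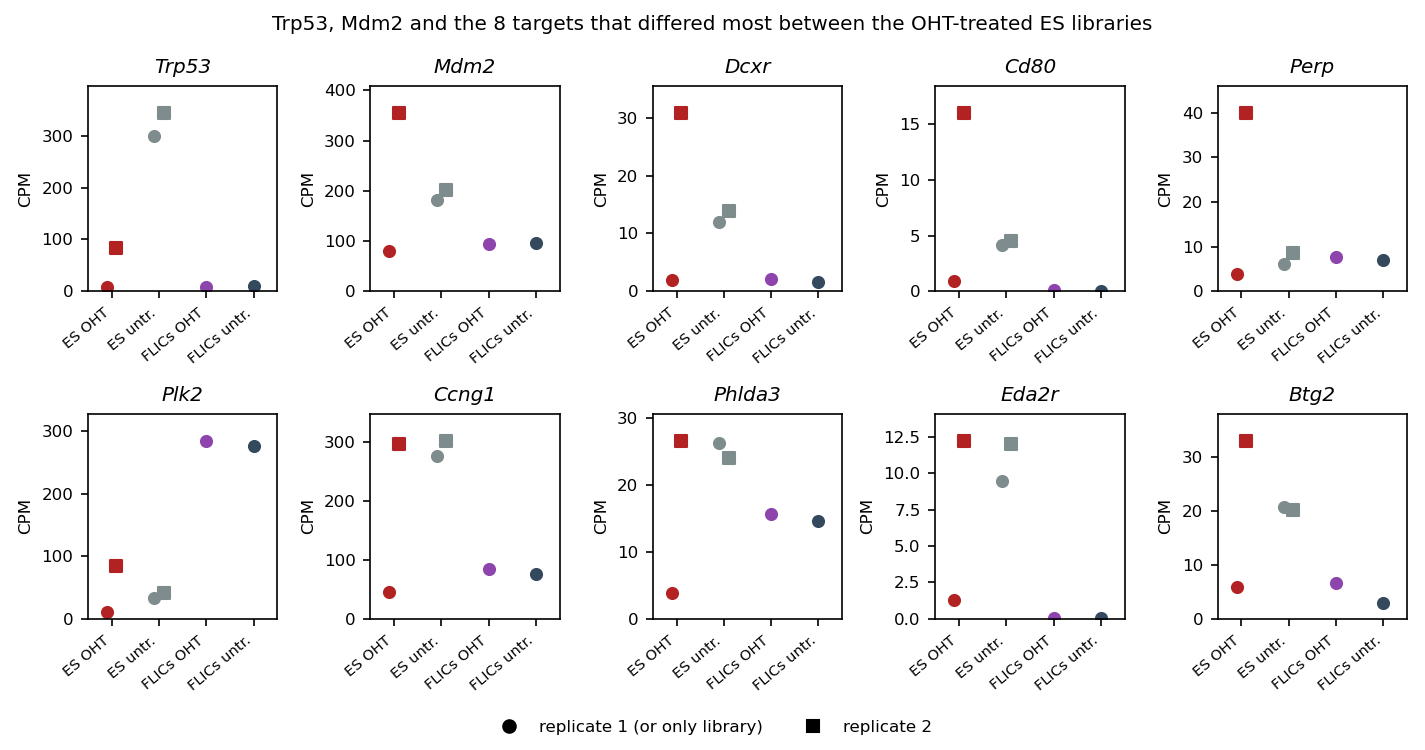
CPM of Trp53, Mdm2 and the 8 targets with the largest difference between the OHT-treated ES cell libraries, 1 point per library; circles are replicate 1 or the only library of a group and squares replicate 2. In each panel replicate 1 of the OHT-treated ES cells lies below both untreated ES cell libraries, and for Trp53 replicate 2 does so too.

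The apoptosis genes ranged from a large to a small difference between the OHT-treated libraries. Perp, a membrane protein of cell junctions and a p53 apoptosis effector, stood at 3.74 and 39.99 CPM in OHT-treated ES cells, against 6.16 and 8.57 CPM in untreated ES cells. It was 10.7-fold higher in replicate 2 than in replicate 1, and 5.43-fold higher in replicate 2 than in the untreated mean. Phlda3, an inhibitor of Akt signalling, stood at 3.81 and 26.6 CPM in OHT-treated ES cells, against 26.1 and 24.0 CPM in untreated ES cells. Eda2r, the receptor for ectodysplasin A2, stood at 1.31 and 12.2 CPM in OHT-treated ES cells, against 9.43 and 12.0 CPM in untreated ES cells. In both genes replicate 1 was far below the untreated libraries while replicate 2 lay just above them.

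Bbc3 and Pmaip1 encode the BH3-only proteins Puma and Noxa. Bbc3 stood at 2.62 and 12.4 CPM in OHT-treated ES cells, against 10.2 and 10.9 CPM in untreated ES cells. Pmaip1 stood at 8.83 and 18.6 CPM in OHT-treated ES cells, against 9.33 and 8.73 CPM in untreated ES cells, so that replicate 1 lay within the untreated range. Bax, the pore-forming effector, was lower in both OHT-treated libraries, at 74.6 and 113 CPM, against 139 and 128 CPM in untreated ES cells. Exons of Bax overlap those of Gm45808 on the same strand, so its counts are uncertain. The apoptosome scaffold Apaf1 and the RNA-binding protein Zmat3 were likewise lower in both. Apaf1 stood at 15.7 and 27.99 CPM in OHT-treated ES cells, against 36.7 and 43.1 CPM in untreated ES cells. Zmat3 had 16.4 and 24.8 CPM in OHT-treated ES cells, against 43.7 and 42.9 CPM in untreated ES cells. Its log2 value was -1.07 with an SE of 0.22, which edgeR did not call (adjusted p = 0.120). Among the apoptosis genes Ei24, a protein of the endoplasmic reticulum, differed least between the OHT-treated libraries, by 0.15 in log2(CPM + 1).

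The death receptors differed in level. Fas had 0 and 24 counts in OHT-treated ES cells, or 0 and 0.941 CPM, against 2 and 6 counts in untreated ES cells. A count of 0 in replicate 1 allows up to 3 counts, or 0.0936 CPM, so Fas was at least 10.1-fold higher in replicate 2 than in replicate 1. Tnfrsf10b, the receptor of the ligand TRAIL, stood at 17.3 and 36.4 CPM in OHT-treated ES cells, against 26.1 and 29.9 CPM in untreated ES cells. Trp53inp1, a cofactor in the p53 stress response, stood at 3.46 and 16.8 CPM in OHT-treated ES cells, against 16.6 and 22.1 CPM in untreated ES cells, and Aen, an apoptosis-enhancing nuclease, at 68.3 and 119.7 CPM, against 126 and 119 CPM. For both genes only replicate 1 fell outside the untreated range.

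Of the DNA repair targets Polk had the largest difference between the OHT-treated libraries, 1.98 in log2(CPM + 1). Polk, a translesion DNA polymerase, stood at 6.49 and 28.6 CPM in OHT-treated ES cells, against 23.2 and 27.7 CPM in untreated ES cells. Ercc5, a nuclease of nucleotide excision repair, stood at 27.3 and 60.4 CPM in OHT-treated ES cells, against 52.2 and 49.7 CPM in untreated ES cells. Xpc, the damage sensor of that pathway, was the only target of this group whose replicate 1 lay within the untreated range, with 75.7 and 62.8 CPM in OHT-treated ES cells, against 77.6 and 67.0 CPM in untreated ES cells. Rps27l, a ribosomal protein paralogue, and Ddb2, a sensor of ultraviolet damage, were below both untreated libraries in replicate 1 and above both in replicate 2. Rps27l stood at 83.8 and 141 CPM in OHT-treated ES cells, against 116 and 119.9 CPM in untreated ES cells, and Ddb2 at 9.70 and 15.1 CPM, against 10.96 and 11.9 CPM. Exons of Ddb2 overlap those of Acp2 on the other strand, and no source used here says whether counting used strand.

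Dcxr, a dicarbonyl reductase in the stress metabolism group, had the largest difference of all 36 targets between the OHT-treated ES cell libraries, 3.44 in log2(CPM + 1). It stood at 1.93 and 30.9 CPM in OHT-treated ES cells, against 11.9 and 13.9 CPM in untreated ES cells. Ak1, an adenylate kinase, stood at 27.2 and 89.9 CPM in OHT-treated ES cells, against 85.3 and 84.5 CPM in untreated ES cells. The sestrins, which restrain mTORC1 under stress, differed from each other. Sesn2 stood at 29.9 and 61.9 CPM in OHT-treated ES cells, against 75.9 and 79.9 CPM in untreated ES cells, and Sesn1 at 20.7 and 25.3 CPM, against 23.6 and 27.9 CPM. Sesn2 was low in both OHT-treated libraries, and for Sesn1 the groups overlapped. Pltp, a phospholipid transfer protein whose exons overlap those of Ctsa on the other strand, was lower in both OHT-treated libraries, at 22.1 and 27.95 CPM, against 40.9 and 39.8 CPM in untreated ES cells.

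In the last group Cd80, a costimulatory ligand of T cells, stood at 0.936 and 16.04 CPM in OHT-treated ES cells, against 4.17 and 4.498 CPM in untreated ES cells. It was 17.1-fold higher in replicate 2 than in replicate 1. Sulf2, an extracellular heparan sulfatase, was lower in replicate 2 than in replicate 1, as was Xpc alone among the other targets. It stood at 132 and 100.2 CPM in OHT-treated ES cells, against 281 and 245 CPM in untreated ES cells, lower in both and lowest in replicate 2. Exons of Sulf2 overlap those of Ncoa3 on the other strand. The secreted stress ligand Gdf15 stood at 2.56 and 5.02 CPM in OHT-treated ES cells, against 3.77 and 3.94 CPM in untreated ES cells. Bloc1s2, a subunit of a lysosome biogenesis complex, and Pard6g, a polarity protein, were 1.99-fold and 1.81-fold higher in replicate 2 than in replicate 1.

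**Figure D3:**
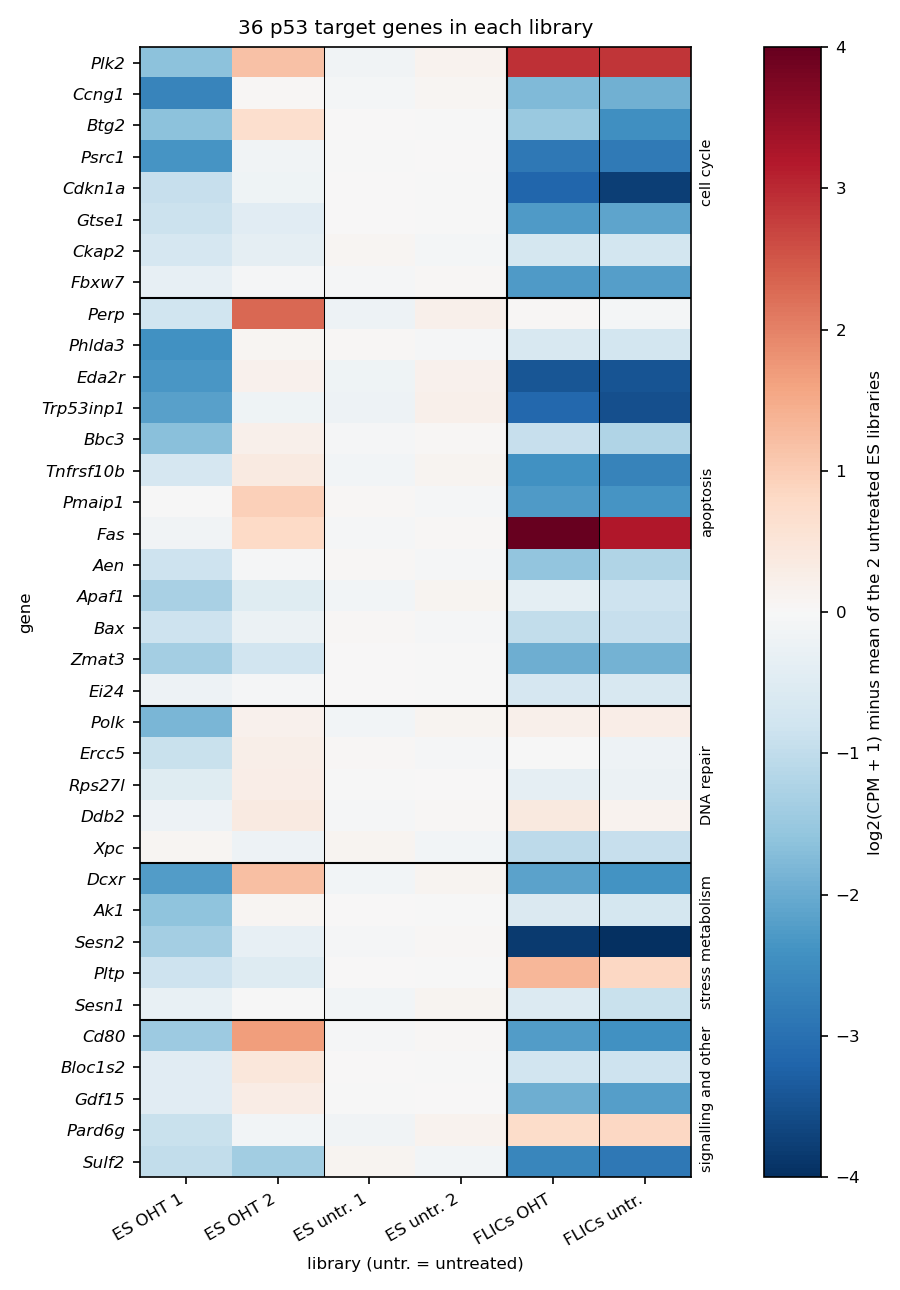
Level of the 36 targets in each of the 6 libraries as log2(CPM + 1) minus the mean of the untreated ES cell libraries, grouped by role; blue is lower, red higher, and colours end at a difference of 4. The column of replicate 1 of the OHT-treated ES cells is blue for 34 of the 35 targets with a mean of at least 1 CPM, and the columns of FLICs are mostly blue, with Fas, Plk2, Pltp and Pard6g the strongest red.

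By order in the ES cell libraries, the 35 targets fell into 3 main patterns. In 16 targets replicate 1 with OHT lay below both untreated libraries and replicate 2 with OHT above both (45.7%), against 13.6% of all genes. They were Ak1, Bbc3, Bloc1s2, Btg2, Cd80, Dcxr, Ddb2, Eda2r, Ercc5, Gdf15, Perp, Phlda3, Plk2, Polk, Rps27l and Tnfrsf10b. In 11 targets both OHT-treated libraries lay below both untreated ones (31.4%), near the 32.7% of all genes, and these were Apaf1, Bax, Cdkn1a, Ckap2, Ei24, Gtse1, Pltp, Psrc1, Sesn2, Sulf2 and Zmat3. In 6 targets, Aen, Ccng1, Fbxw7, Pard6g, Sesn1 and Trp53inp1, replicate 2 lay within the untreated range. No target had both OHT-treated libraries above both untreated ones, a pattern found in 20% of all genes.

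OHT in ES cells was then compared as a group. The edgeR quasi-likelihood test called 0 of 36 targets in either direction at an adjusted p under 0.05, where it called 0.534% of all genes, 0.521% higher and 0.0129% lower. At an unadjusted p under 0.05 there were 6 targets lower (16.7%), against 7.79% of all genes, and 0 higher, against 10.5%. The 6 were Sulf2, Zmat3, Pltp, Gtse1, Apaf1 and Ckap2. DESeq2 called 2 of 36 targets lower, Sulf2 and Zmat3, against 0.586% of the genes with an adjusted p, and 0 higher, against 2.02%. Sulf2 came nearest in edgeR, at -1.18 on the log2 scale (SE 0.19, edgeR adjusted p = 0.0700). The median log2 fold change of the targets was -0.44, against -0.0082 over all genes, and 28 of 36 were below 0 (77.8%), against 50.7% of all genes. Left to replicate 2 alone, without replicate 1 with OHT, the same test called 10 targets higher and 7 lower, against 19.9% and 20.3% of all genes. Left to replicate 1 alone it called 29 lower (80.6%), against 13.9% of all genes, and 0 higher, against 14.9%. In these fits the lone OHT library is assumed to vary like the untreated pair.

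Other genes of the pathway were read in the same way. Of 32 further p53 targets found in the table, 28 averaged at least 1 CPM over the OHT-treated ES cell libraries. Of these 12 were at least 2-fold higher in replicate 2 and 0 lower, against 3.32% and 0.386% of all genes. Their median difference was 0.42. Ephx1, microsomal epoxide hydrolase, stood at 2.78 and 32.8 CPM in OHT-treated ES cells, against 14.7 and 18.4 CPM in untreated ES cells. Mdm2 stood at 79.8 and 356 CPM in OHT-treated ES cells, against 182 and 202 CPM in untreated ES cells. Tap1, a peptide transporter of antigen presentation, stood at 1.03 and 9.06 CPM in OHT-treated ES cells, against 2.22 and 3.11 CPM in untreated ES cells. For each of these genes replicate 1 lay below and replicate 2 above both untreated libraries.

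A few of these further targets were higher in both OHT-treated libraries. Gadd45a, a growth arrest and DNA damage gene, stood at 26.3 and 23.5 CPM in OHT-treated ES cells, against 12.6 and 11.6 CPM in untreated ES cells. Its groups did not overlap, and edgeR did not call it (1.04 on the log2 scale, SE 0.16, adjusted p = 0.0700). Igfbp3, an insulin-like growth factor binding protein, and Steap3, a metalloreductase, were also not called, with log2 fold changes of 0.71 and 0.79. Of the 31 further targets tested with OHT in ES cells, edgeR called 0, against 0.534% of all genes. At an unadjusted p under 0.05 there were 5 higher, against 10.5% of all genes, and 2 lower, against 7.79%. DESeq2 called 2 of them higher, against 2.02% of all genes.

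Among 19 regulators of p53, 18 averaged at least 1 CPM over the OHT-treated ES cell libraries. Of these 2 were at least 2-fold higher in replicate 2, Trp53 and Mdm4, against 3.32% of all genes. Mdm4, the inhibitory partner of Mdm2, stood at 19.7 and 54.9 CPM in OHT-treated ES cells, against 62.8 and 71.9 CPM in untreated ES cells. The median difference of the regulators was -0.27, the other way from the targets. In 20 cell cycle genes known to be repressed through p21 and the DREAM complex, the median difference was -0.14. By 2-fold, 0 were higher and 0 lower in replicate 2, against 3.32% and 0.386% of all genes. Their median log2 fold change in OHT-treated ES cells was -0.14. For these genes edgeR called 0 of 20, against 0.534% of all genes, and DESeq2 0, against 2.02% higher and 0.586% lower. At an unadjusted p under 0.05 in edgeR, 2 were lower, against 7.79% of all genes, and 0 higher, against 10.5%. Of the regulators 0 of 19 were called by edgeR or by DESeq2, against the same shares of all genes. At an unadjusted p under 0.05 in edgeR, 1 was higher and 4 lower, against 10.5% and 7.79% of all genes.

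In FLICs, OHT was compared in 1 library against 1, so no difference has a replicate check. Of 33 targets with a mean of at least 1 CPM, 0 were at least 2-fold higher on the scale log2(CPM + 1) and 0 at least 2-fold lower, against 0.424% and 0.102% of all genes. The median difference was 0.11, against 0.0344 over all genes, and 22 of 33 were above 0 (66.7%), against 56.4%. Btg2 stood at 6.66 CPM with OHT and 2.90 CPM without, and Fas at 18.7 CPM with OHT and 9.29 CPM without. As ratios of counts scaled to library size, Btg2 was 2.29-fold higher (95% interval 1.81 to 2.93) and Fas 2.01-fold higher (1.76 to 2.30), where exact intervals cover counting error only. With 1 CPM added, both lay just under 2-fold, at 0.97 and 0.94.

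Cdkn1a stood at 3.29 CPM in FLICs with OHT and 1.79 CPM in untreated FLICs, a ratio of 1.84 (1.35 to 2.54). Pltp stood at 102 CPM with OHT and 72.7 CPM without, a ratio of 1.41 (1.34 to 1.48). Aen had the lowest difference, -0.36, with 40.8 CPM with OHT and 52.8 CPM without. Trp53 differed by -0.18 in log2(CPM + 1). Fibroblast markers, at 23370 CPM with OHT and 18180 CPM without, moved as well, and their part in these differences was not tested.

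**Figure D4:**
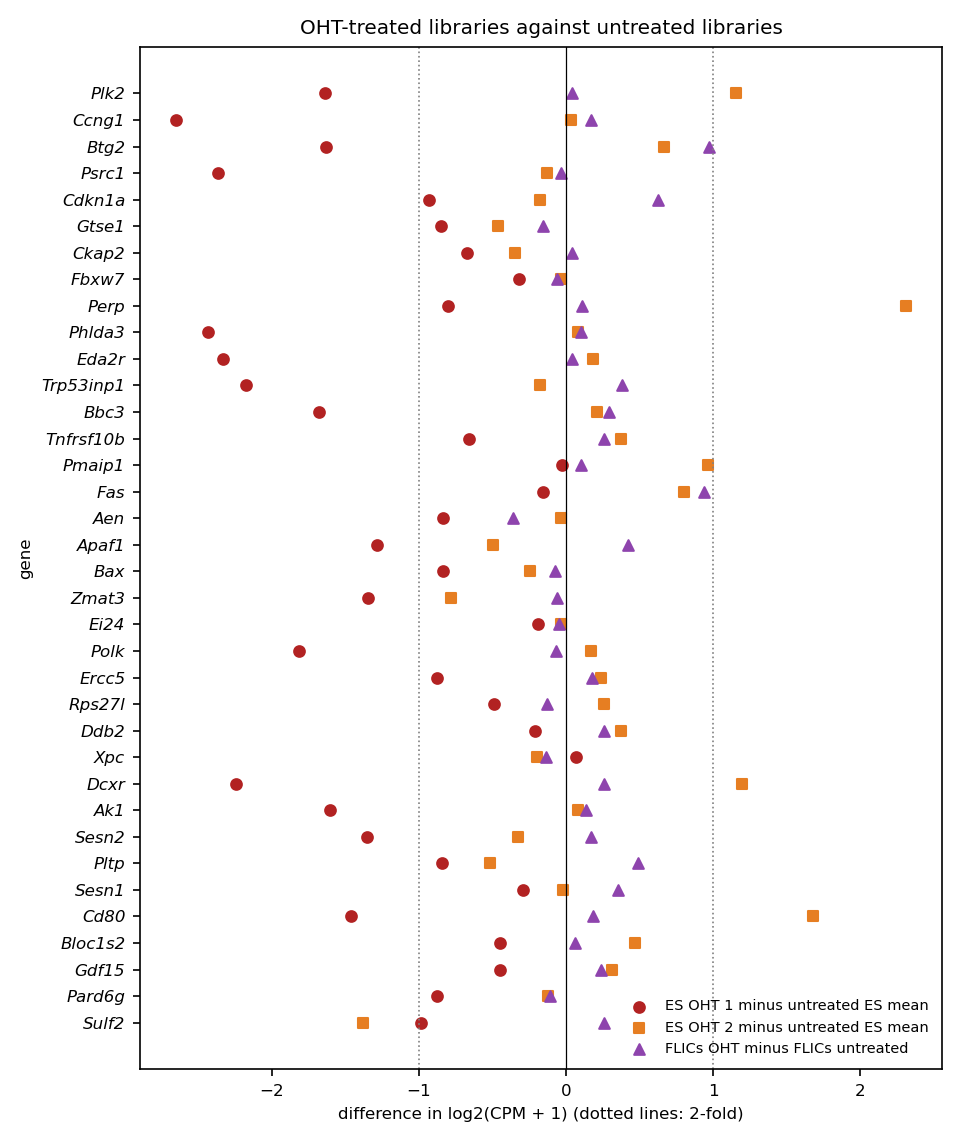
Difference in log2(CPM + 1) of each OHT-treated library from its untreated counterpart for the 36 targets; red circles and orange squares are replicates 1 and 2 of OHT-treated ES cells against the mean of untreated ES cells, purple triangles are FLICs with OHT against untreated FLICs, and dotted lines mark 2-fold. Replicate 1 of the ES cells lies left of 0 for all targets but Xpc, while FLICs lie between -0.36 and 0.97.

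Whether the response to OHT differed between FLICs and ES cells was tested as an interaction in the same edgeR fit, which assumes that the single FLICs libraries vary like the ES cell libraries. It called 0 of 36 targets and 0% of all genes. At an unadjusted p under 0.05 there were 5 targets with a higher value in FLICs (Apaf1, Cdkn1a, Pltp, Sulf2 and Zmat3, 13.9%), against 3.57% of all genes, and 0 with a lower value, against 3.23%. DESeq2 called 0 of 36 targets, against 0.00682% of genes higher and 0.136% lower. Below 0 were 7 of 36 targets (19.4%), against 44.3% of all genes. Sulf2 had the smallest p, with a log2 difference of 1.45, and stood at 42.0 CPM in FLICs with OHT and 34.9 CPM in untreated FLICs. Without replicate 1 of the OHT-treated ES cells 5 targets were called higher in FLICs and 3 lower, against 11.7% and 6.54% of all genes, and without replicate 2 the counts were 27 (75%, against 8.55%) and 0 (against 4.87%). The number of calls thus depended on which OHT-treated ES cell library was used. In these reduced fits only the untreated ES cell pair held replicates, so each lone library is assumed to vary like that pair. The calls therefore do not measure spread among OHT-treated ES cell libraries or FLICs libraries. As an effect size, the target median of the log2 difference was 0.0756 without replicate 1 and 1.31 without replicate 2.

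Without OHT, p53 targets were mostly lower in FLICs than in ES cells. The edgeR test called 18 of 36 targets lower (50%), against 28.7% of all genes, and 3 higher (8.33%), against 26.2%. The median log2 fold change was -1.09, against -0.11 over all genes. Setting Cd80 at its bound could not change this median, because the fitted value and the bound both lie below it. Below 0 were 30 of 36 targets (83.3%), against 53.3% of all genes. DESeq2 called 19 lower (52.8%) and 1 higher (2.78%), against 27% and 23.9% of all genes. Without replicate 1 of the OHT-treated ES cells, which share the estimate of spread, edgeR called 27 lower and 5 higher, against 41.8% and 36.6% of all genes. The counts were the same without replicate 2, against 41.1% and 37.3%. Without untreated ES cell replicate 1 it called 14 lower and 1 higher, against 18.5% and 16.2%, and without untreated replicate 2 it called 16 lower and 2 higher, against 18.4% and 16.4%. Bax, Ckap2, Ei24 and Sesn1 lost their calls when either of these libraries was left out, and Aen and Xpc without untreated replicate 1, while Btg2 and Cd80 were then called lower in both fits. Trp53 fell to 8.98 CPM in untreated FLICs, against 299 and 345 CPM in untreated ES cells, a log2 value of -5.16 (SE 1.45, edgeR adjusted p = 0.0267). The ES cell and fibroblast marker sums given above also differed between FLICs and ES cells. Endoderm markers summed to 93.9 CPM in untreated FLICs, against 2.48 and 2.37 CPM in untreated ES cells. Foxa2 gave 66.8 CPM of that sum, and Gata4 and Gata6 were also higher in untreated FLICs. Sox17 and Sox7 of the same list were lower there, and Sox17 had no count. Neural markers summed to 820.0 CPM in untreated FLICs, against 351 and 317 CPM in untreated ES cells. Neurog2 of that list had no count in any of these libraries, so the sum does not stand for each of its genes. The part of these lists in the target levels was not tested.

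Among the cell cycle and metabolic targets, Cdkn1a and Sesn2 fell most in FLICs. Cdkn1a stood at 1.79 CPM in untreated FLICs, against 37.4 and 37.3 CPM in untreated ES cells (-4.38 on the log2 scale, SE 0.44, edgeR adjusted p = 0.000618). Sesn2 stood at 3.98 CPM in untreated FLICs, against 75.9 and 79.9 CPM in untreated ES cells (-4.29, SE 0.53, edgeR adjusted p = 0.00133). Fbxw7, Gtse1 and Psrc1 were also called lower, by -2.27, -2.14 and -2.91 on the log2 scale. Ckap2, at -0.74, and Sesn1, at -0.95, fell less. Btg2 (-2.82, SE 1.02) and Ccng1 (-1.94, SE 1.02) were not called, though Btg2 was called lower without a count filter and without any 1 of the ES cell libraries, and Ccng1 without either OHT-treated one.

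Of the 13 apoptosis targets 8 were called lower and 1 higher in untreated FLICs, against 28.7% and 26.2% of all genes. Eda2r had 2 counts in untreated FLICs, or 0.0617 CPM, against 9.43 and 12.0 CPM in untreated ES cells, and was 176-fold lower (95% interval 48.5 to 1460 from the counts, edgeR adjusted p = 0.0219). Trp53inp1 stood at 0.772 CPM in untreated FLICs, against 16.6 and 22.1 CPM in untreated ES cells (-4.64, SE 1.11, edgeR adjusted p = 0.0152). Pmaip1 fell to 0.957 CPM in untreated FLICs, against 9.33 and 8.73 CPM in untreated ES cells, and Tnfrsf10b to 3.55 CPM, against 26.1 and 29.9 CPM. Bax, Aen, Zmat3 and Ei24 completed the group, with log2 fold changes from -1.98 to -0.65. Bbc3 (-1.40), Phlda3 (-0.78), Apaf1 (-0.85) and Perp (-0.09) were not called.

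Fas, Plk2 and Pltp were the targets called higher in untreated FLICs. Fas stood at 9.29 CPM in untreated FLICs, against 0.0662 and 0.160 CPM in untreated ES cells, with 301 counts in untreated FLICs, against 2 and 6 in untreated ES cells (6.26 on the log2 scale, SE 1.23, edgeR adjusted p = 0.00764). Plk2 stood at 277 CPM in untreated FLICs, against 33.5 and 41.1 CPM in untreated ES cells (2.89, SE 0.94, edgeR adjusted p = 0.0436). Pltp stood at 72.7 CPM in untreated FLICs, against 40.9 and 39.8 CPM in untreated ES cells (0.85, SE 0.19, edgeR adjusted p = 0.0121). DESeq2 did not call Fas (adjusted p = 0.0511) or Plk2 (adjusted p = 0.0611), and edgeR did not call Pltp without untreated ES cell replicate 1 (adjusted p = 0.0833) or replicate 2 (adjusted p = 0.0954), nor Plk2 without untreated replicate 1 (adjusted p = 0.0650).

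In the remaining groups 1 of 5 DNA repair targets was called lower in untreated FLICs, Xpc at -0.94, against 28.7% of all genes. Polk, Ercc5, Ddb2 and Rps27l had log2 fold changes from -0.24 to 0.28. Gdf15 had 2 counts in untreated FLICs, or 0.0617 CPM, against 3.77 and 3.94 CPM in untreated ES cells, and was 62.6-fold lower (95% interval 17.2 to 520 from the counts, edgeR adjusted p = 0.00169). Sulf2 stood at 34.9 CPM in untreated FLICs, against 281 and 245 CPM in untreated ES cells (-2.91, SE 0.26, edgeR adjusted p = 0.00043). Cd80 had no count in untreated FLICs and was at least 47-fold lower than in untreated ES cells, against a floor of 3 counts in the FLICs library. It narrowly missed the call (edgeR adjusted p = 0.0542), and DESeq2 called it lower. Of the other metabolic and signalling targets Dcxr (-2.98), Ak1 (-0.71), Bloc1s2 (-0.94) and Pard6g (0.88) were not called.

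**Figure D5:**
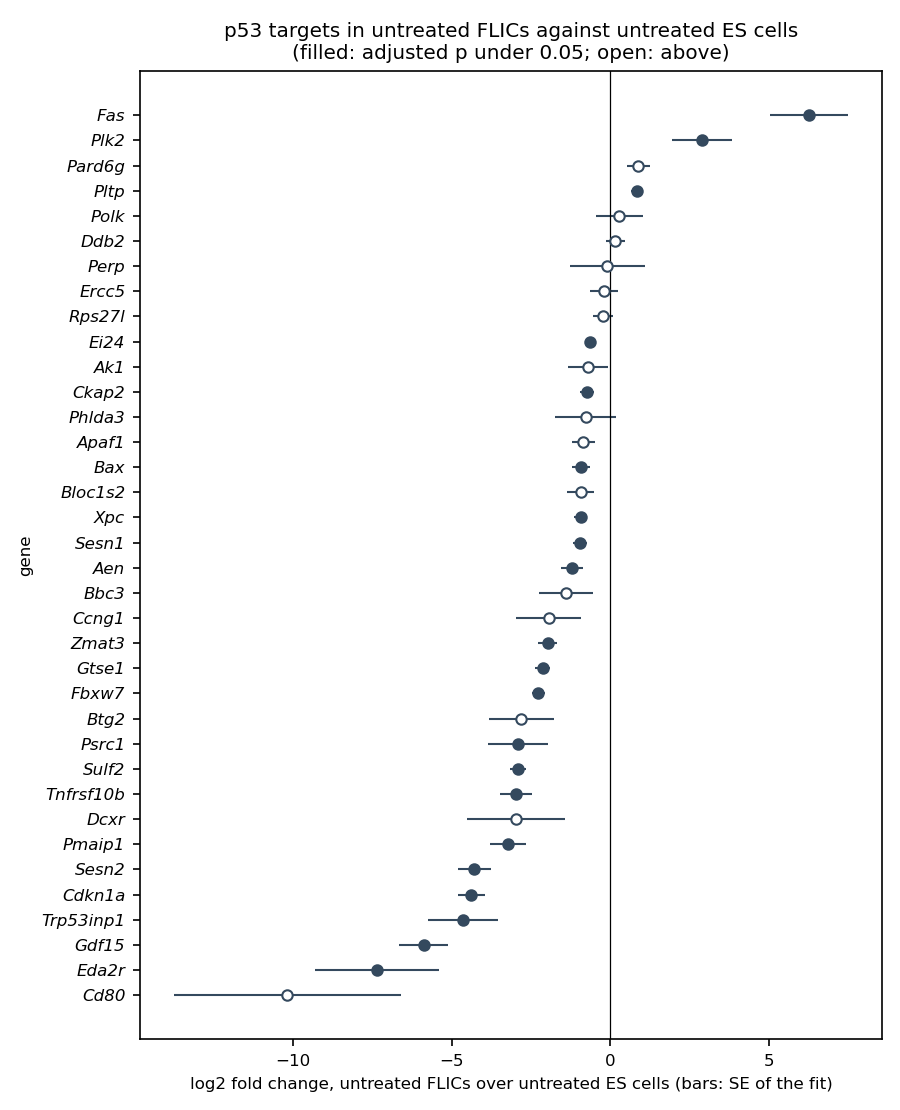
Fitted log2 fold change of the 36 targets in untreated FLICs over untreated ES cells, with bars for the standard error of the edgeR fit; filled points passed an adjusted p under 0.05. The 18 targets called lower lie between -7.36 and -0.65 and the 3 called higher between 0.85 and 6.26, while the value of Cd80, with no count in FLICs, depends on the prior count of the fit.

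Of the 31 further p53 targets tested, 8 were called lower and 3 higher in untreated FLICs, against 28.7% and 26.2% of all genes, so the share called lower was near that of all genes. Their median log2 fold change was -0.79, against -0.11 over all genes. Sfn, the cell cycle inhibitor 14-3-3 sigma, stood at 2.99 CPM in untreated FLICs, against 136 and 110.0 CPM in untreated ES cells. Tigar, a regulator of glycolysis, stood at 23.6 CPM in untreated FLICs, against 186 and 154 CPM in untreated ES cells. Thbs1, the matrix protein thrombospondin 1, was far higher, at 1049.7 CPM in untreated FLICs, against 0.927 and 1.81 CPM in untreated ES cells. Of the 19 regulators 8 were called lower and 4 higher, against the same shares of all genes. Cdkn2a, which encodes Arf and p16, stood at 580 CPM in untreated FLICs, against 38.9 and 35.96 CPM in untreated ES cells. Usp7, a deubiquitinase of p53 and Mdm2, fell by 2.08 on the log2 scale, and the checkpoint kinase Chek2 by 1.62.

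Compared per kb of the deposited gene length, the order of the targets changed with the cell type. Of these lengths 77.6% were multiples of 3, and nothing says whether they include untranslated regions. The order of genes within a cell type therefore rests on lengths that may leave out part of the transcript. In untreated ES cells Rps27l was highest, at 356 ± 8.58 CPM per kb (SD, n = 2), and Ccng1 was next, at 328 ± 21.01 CPM per kb. Bax followed at 218 ± 12.7 CPM per kb, and Gtse1 at 159.96 ± 2.46 CPM per kb. The untreated ES cell libraries gave 350 and 362 CPM per kb for Rps27l and 313 and 342 for Ccng1. These values did not overlap, though the means differed by less than 2 SD of Ccng1. Bax and Gtse1 stood clear of the gene above them. Further down, Psrc1, Aen and Ckap2 averaged 123, 122 and 116 CPM per kb, and their libraries overlapped. In untreated FLICs, by contrast, Rps27l was followed by Plk2, which ranked 24 in untreated ES cells. Cdkn1a ranked 28 in untreated FLICs and 10 in untreated ES cells. Cd80 was lowest in untreated FLICs and Fas in untreated ES cells.

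The sites shown above were set beside these differences. The 8 genes with a site had differences between the OHT-treated ES cell libraries from 0.27 (Sesn1) to 3.14 (Cd80) with a median of 0.67, against a median of 1.12 in 19 genes with a window but no site. Cdkn1a, whose site has no mismatch, differed by 0.76, and Ccng1, with 1 mismatch, by 2.68. In untreated FLICs the median log2 fold change was -1.45 with a site and -1.08 in the 20 genes without one. These values are descriptive, and the window leaves out sites further from the start.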

How the data were processed

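The labels' protocols name RNeasy Mini for RNA and TruSeq Stranded Total RNA LT for libraries. The authors deposited raw read counts per gene for 6 libraries, as integers, with a column of gene lengths, of which 77.6% were multiples of 3. Salmon, DESeq2 and the build GRCm38 appear in the list of tools and builds, per the submitters' processing notes. The version and role of each tool, the annotation and any use of strand in counting were not given in the sources used here.

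Symbols came from GENCODE M21 and matched 22509 of 22600 genes. Of the further p53 targets listed, 2 symbols matched no gene and were not analysed here. Promoter sequences came from RefSeq on GRCm38.p6. The p53 target genes, their roles and the other lists were chosen with earlier results of these data known, and the counts against each OHT-treated library were added after the data had been seen. All 36 targets could be named; those always given in full were the 8 with the largest difference between the OHT-treated ES cell libraries at a mean of at least 5 CPM, up to 5 per direction called in FLICs and the 4 with the largest difference with OHT in FLICs. Up to 3 genes of each other list were named per comparison.

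Counts were filtered with filterByExpr and scaled by TMM in edgeR 4.0.16 (limma 3.58.1, R 4.3.3). The quasi-likelihood fit used all 6 libraries and the 4 groups, with 2 residual degrees of freedom and a common biological coefficient of variation of 18.5%. Adjustment followed Benjamini and Hochberg over 15535 genes, with calls at an adjusted p-value under 0.05. FLICs, with 1 library per condition, borrow the spread of the ES cell pairs. Comparisons of single libraries used log2(CPM + 1), a mean of at least 1 CPM and a threshold of 2-fold, with no test. Chi-square per degree of freedom was 57.1 for the OHT-treated and 11.6 for the untreated ES cell pair, above sampling noise, so that each library counts as 1 sample. A count of 0 allows up to 3 counts, or 0.0686 to 0.118 CPM, which covers counting error only. Alternatives were relative log expression scaling, DESeq2 1.42.0, other count filters, the ES cells alone, a replicate block, other pseudocounts and leaving out each ES cell library. The fit was also run on simulated counts, drawn independently for each gene and library. These held no shift shared by many genes of 1 library, unlike the OHT-treated ES cell pair. The simulation therefore cannot speak to the targets that were not called.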

Additional observations from a re-analysis of the deposited data

How the results depend on the processing

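Direction in OHT-treated ES cells rests on which OHT library is used. Over the fits that left out 1 ES cell library, targets called lower ranged from 0 to 29, targets called higher from 0 to 10, all genes called from 18 to 6165, and the target median from -0.95 to 0.0592. Single genes ranged from -1.75 to 0.69 (Btg2), -2.64 to 0.0336 (Ccng1), -2.17 to 1.89 (Cd80), -2.71 to 1.25 (Dcxr), -3.00 to 0.19 (Eda2r), -0.95 to 2.43 (Perp), -2.68 to 0.0889 (Phlda3), -1.70 to 1.17 (Plk2) and -1.23 to 0.89 (Mdm2). All genes called numbered 392 with DESeq2, 262 without a count filter, 46 with a filter of 5 CPM in 2 libraries and 148 with the ES cells alone; targets called lower numbered 2 with DESeq2 and 1 without a filter (Sulf2). Btg2 was 0.0089 under the 5 CPM filter. Titles share a number but nothing says what it marks. With the replicate block, on 1 residual degree of freedom, 898 genes were called, 704 higher (4.95%) and 194 lower (1.37%), with 4 of 35 targets lower (11.4%; Apaf1, Pltp, Sulf2 and Zmat3) and 0 higher, Trp53 was -3.51 (adjusted p = 0.00912), and Dcxr was -0.50, Plk2 -0.20 and Mdm2 -0.15. Deviations of same-numbered ES cell libraries correlated at 0.437 across genes.

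In untreated FLICs against untreated ES cells, targets called higher numbered 1 with DESeq2 and from 1 to 5 with a library left out, those called lower from 14 to 27, all genes called from 5375 to 12025, and the median from -1.15 to -1.07. It was -0.96 under the 5 CPM filter. For the difference of the OHT responses, leaving out a library gave 0 to 27 targets higher, 0 to 3 lower, 0 to 2804 genes and medians from 0.0756 to 1.31, and DESeq2 called 21 genes. In FLICs with OHT, 1 target (Btg2) passed 2-fold with a pseudocount of 0.5 CPM, and the median was 0.0419 at a mean of at least 5 CPM. Between the OHT-treated ES cell libraries the median was 0.95 and 0.85 with pseudocounts of 0.5 and 2 CPM and 0.96 at a mean of at least 5 CPM. The cause of these changes was not tested. Each fit that left out an ES cell library kept a single pair of replicates. Its calls assume that every group varies like that pair. Relative log expression scaling shifted no library by more than 0.0334 on the log2 scale. Targets with few counts, such as Fas in ES cells and Eda2r, Gdf15 and Cd80 in FLICs, are limited by depth.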
